A study of Homo sapiens with 10 samples.

Results

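The genes described here are 10 mucins and airway secretory markers: MUC5AC, MUC5B, MUC1, MUC13, MUC16, TFF1, TFF3, AGR2, AGR3 and SPDEF. They were taken by symbol, with no threshold on their values, from the 28281 gene symbols that both count tables list, and all 10 were found in both. Messenger RNA was counted in 10 libraries from A549 and H1944, established human lung adenocarcinoma cell lines. In each line, wild-type (WT) cells were set against cells in which APEX1 had been knocked out (KO), with 3 WT and 3 KO libraries of A549 and 2 WT and 2 KO libraries of H1944. APEX1 encodes APE1, an enzyme that cuts DNA at sites that have lost their base during repair, and the title of the study connects it with urea cycle genes and DNA G-quadruplexes. A549 was grown in DMEM and H1944 in RPMI1640 with sodium pyruvate, both with fetal bovine serum. How the knockouts were made, and whether a KO library is from a clone or a pool, is not given in the sources used here.

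Mucins are large proteins with long stretches of serine and threonine that carry dense sugar chains. The gel-forming mucins MUC5AC and MUC5B are folded in the endoplasmic reticulum with the help of the protein disulfide isomerase AGR2, packed into granules, and released to make airway mucus, together with trefoil factor peptides. Membrane mucins such as MUC1, MUC13 and MUC16 stay on the cell surface and shed their outer part, and SPDEF is a transcription factor of the ETS family that drives the goblet cell program in airway epithelium. Lung adenocarcinomas vary in how much of this secretory program they express.

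Levels are given as CPM, counts scaled to library size, after TMM scaling over all 10 libraries, and, where genes are compared with each other, as CPM per kilobase of exon. A call means a Benjamini-Hochberg adjusted p under 0.05 in edgeR's quasi-likelihood test over all genes tested. Library totals ran from 18314224 to 30219850 counts. APEX1 itself measured 165, 264 and 247 CPM in the A549 WT libraries and 64.3, 58.6 and 109 CPM in the A549 KO libraries. In H1944 it measured 239.7 and 239 CPM in WT and 85.5 and 85.8 CPM in KO. The groups did not overlap in either line, with a log2 fold change of -1.48 in H1944 (edgeR adjusted p = 6.4e-19) and of -1.51 in A549 (edgeR adjusted p = 0.521). The A549 KO columns carry only the numbers 65, 16 and 66. The A549 libraries form 2 sets that cross genotype: WT 1 and KO 65 held 4839 and 5945 counts of RNA28SN4, a ribosomal RNA gene, and the other 4 held 0. The H1944 libraries held 2935 to 9851. Ribosomal RNA genes took 0.284% to 14.2% of A549 counts and 0.139% to 0.316% of H1944 counts. Of the markers of lung epithelium, NKX2-1 had at most 3 counts in any library, and SCGB1A1, SFTPB and SFTPC had at most 6. Others were present: SFTPD had 597 and 512 counts and NAPSA 239 and 160 in H1944 WT, and ABCA3 had 552 to 1087 in the A549 libraries.

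In H1944, all 7 of the genes that could be tested fell in KO cells, over a wide range of sizes. The fall was 1.89-fold for MUC13, 6.18-fold for MUC16, 6.69-fold for MUC1 and 18.2-fold for MUC5AC. It was 43.0-fold for SPDEF and 113-fold for MUC5B, and AGR2 was nearly lost. Over all 16626 genes tested in this comparison, 33.9% were called lower and 67.1% were called in either direction, so a call by itself is common here and the sizes say more. Of the tested genes, 830 (4.99%) were lower by 4-fold or more and 197 (1.18%) by 32-fold or more. Among the secretory genes, 6 of the 7 tested passed the former limit and 3 passed the latter. AGR2 and SPDEF passed the filter on low counts only through their WT libraries, so the 7 are not a count of independent evidence. In such bulk samples, fewer cells that express a gene and less of its RNA in each cell cannot be told apart.

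The gel-forming mucins lie side by side on chromosome 11 (GRCh38.p14), MUC5AC at 1157953 to 1201138 and MUC5B at 1223066 to 1262172, both on the plus strand. MUC5B, the main mucin of airway submucosal glands, measured 177 and 169 CPM in the H1944 WT libraries and 1.21 and 1.84 CPM in the KO libraries, from 4075 and 3616 counts against 35 and 56. The groups were far apart, and the fall was 113-fold (log2 fold change -6.81, SE 0.08, edgeR adjusted p = 4.6e-24). Only 0.535% of the tested genes were as low or lower by fold change. MUC5AC, the mucin typical of surface goblet cells, measured 21.3 and 18.1 CPM in WT and 1.18 and 0.986 CPM in KO. The groups did not overlap, and the fall was 18.2-fold (log2 fold change -4.19, SE 0.17, edgeR adjusted p = 2.4e-15). Per kilobase, MUC5AC stood to MUC5B as 0.128 and 0.114 in the WT libraries and as 1.04 and 0.571 in the KO libraries, the latter resting on 30 to 56 counts a gene.

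MUC5B-AS1 lies within MUC5B on the opposite strand. It measured 5.60 and 5.61 CPM in H1944 WT and had 0 counts in both KO libraries, where 249 counts stood against 0 and the fall was at least 55.5-fold against 3 counts per library. Whether the authors' counting used strand is not given in the sources used here, so reads of MUC5B and of its antisense partner cannot be told apart. Floors of this kind, and the intervals below, cover counting error only, since the reads carry no molecular identifiers.

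AGR2, the isomerase that mucin folding depends on (chromosome 7, 16791811 to 16804999, minus strand), measured 67.3 and 72.0 CPM in H1944 WT and 0.104 and 0.0329 CPM in KO. Those values are 1549 and 1540 counts against 3 and 1, so its transcript was all but absent from both KO libraries. The ratio of the counts was 1032, with a 95% exact binomial interval of 403 to 3791 (edgeR adjusted p = 7.5e-22). The fitted log2 fold change of -9.91 depends on the prior count, and was -10.84 without KO 1 and -9.32 without KO 2. AGR2 ranked 13 from the lowest among the 16626 genes tested. Its close relative AGR3, which lies 49.7 kb away on the same strand, was scarce at the outset, with 5 and 14 counts in WT and 0 in both KO libraries, a fall of at least 4.23-fold against 3 counts per library. AGR3 did not pass the filter on low counts and was not tested.

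SPDEF (chromosome 6, 34537802 to 34556329, minus strand) measured 7.90 and 6.97 CPM in H1944 WT and 0.138 and 0.197 CPM in KO. The counts were 182 and 149 against 4 and 6, and the fall was 43.0-fold (log2 fold change -5.43, SE 0.31, edgeR adjusted p = 1.0e-12). It ranked 159 from the lowest. Per kilobase, AGR2 stood to SPDEF as 5.73 and 6.95 in the H1944 WT libraries. The ratio was 5.23 to 5.43 in A549 WT and 4.76 to 8.39 in A549 KO. The H1944 KO counts are too few for a ratio to be read.

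The membrane mucins fell by smaller folds than MUC5AC, SPDEF, MUC5B and AGR2, and each kept 104 counts or more in every H1944 KO library. MUC1, which carries a signalling tail inside the cell (chromosome 1, 155185824 to 155192915, minus strand), measured 60.7 and 59.9 CPM in H1944 WT and 8.37 and 9.63 CPM in KO. The fall was 6.69-fold (log2 -2.74, SE 0.08, edgeR adjusted p = 5.3e-18). MUC16, the carrier of the CA125 tumour antigen (chromosome 19, 8848844 to 9065751, minus strand), measured 22.6 and 21.1 CPM in WT and 3.60 and 3.48 CPM in KO, a 6.18-fold fall (log2 fold change -2.63, SE 0.12, edgeR adjusted p = 3.6e-14). The ratio of MUC1 to MUC16 per kilobase was 24.9 and 26.3 in WT and 21.6 and 25.7 in KO. MUC13, a mucin of gut and airway surfaces (chromosome 3, 124905442 to 124934751, minus strand), measured 46.1 and 42.7 CPM in WT and 22.8 and 24.1 CPM in KO. Its fall of 1.89-fold was the smallest of the 7 (log2 fold change -0.92, SE 0.07, edgeR adjusted p = 1.4e-10); 12.8% of tested genes were as low or lower. In a fit of all 10 libraries, which lends H1944 the wider spread of A549, MUC13 and MUC16 were not called (edgeR adjusted p = 0.387 and 0.103).

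The trefoil peptides were close to absent. TFF1, which is secreted with MUC5AC in the stomach (chromosome 21, 42362282 to 42366535), had 4 and 3 counts in H1944 WT and 1 and 0 in KO. The ratio was 9.36, with a 95% exact binomial interval of 1.20 to 422. TFF3, the intestinal and airway member of the family (chromosome 21, 42311667 to 42315409), had 0 and 1 counts in WT and 0 in both KO libraries, so no fold is given. TFF1 and TFF3 did not pass the filter and were not tested. Over all 10 secretory genes, 9 had every KO library of H1944 below every WT library, a pattern that 40.1% of 17677 genes showed in the same direction.

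**Figure D1:**
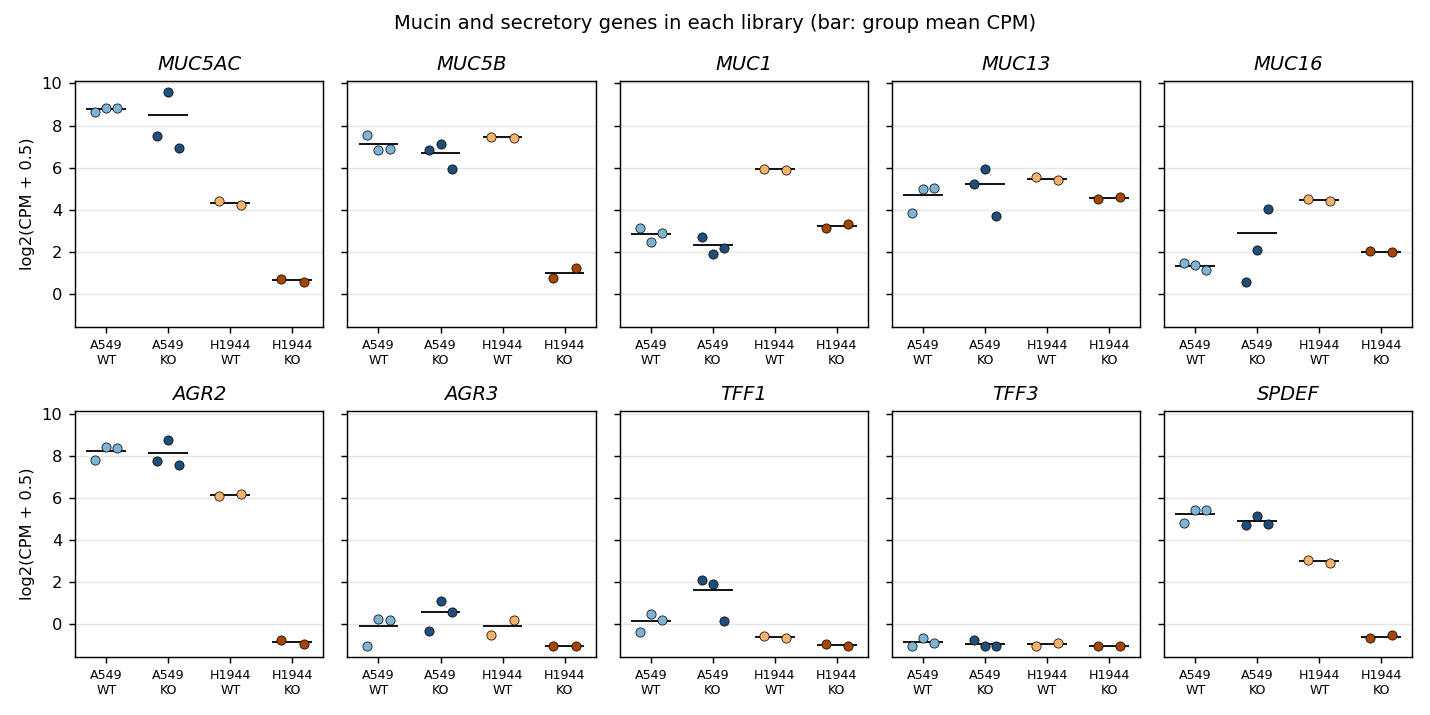
Level of each of the 10 genes in every library, as log2(CPM + 0.5), by line and genotype; points are libraries and bars mark the group mean CPM. In H1944, AGR2, MUC5B, SPDEF and MUC5AC drop to about 2 CPM or less in KO, while the 3 A549 KO libraries lie around or among their WT libraries.

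Summed over the 10 genes, CPM was 403 and 391 in the H1944 WT libraries and 37.4 and 40.3 in the KO libraries. The gel-forming pair accounted for 198 and 187 CPM of this in WT and for 2.39 and 2.83 CPM in KO. Per kilobase, the order in WT was AGR2 at 24.5 ± 1.18 (SD, n = 2), then MUC1 at 12.8 ± 0.117 and MUC13 at 12.7 ± 0.686, which did not differ beyond their spread, then MUC5B at 9.30 ± 0.301, SPDEF at 3.89 ± 0.346 and MUC5AC at 1.13 ± 0.127. In KO the order was led by MUC13 at 6.70 ± 0.275 and MUC1 at 1.91 ± 0.189, and each of the others lay at or below 0.0876. Of these 10 genes, MUC13 and MUC1 therefore held almost all of what remained in KO per kilobase. The membrane mucin MUC16, at 0.0807, lay level with MUC5B at 0.0820 by this measure. In CPM, MUC16 held 3.60 and 3.48 of the 37.4 and 40.3 summed in the KO libraries.

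RefSeq sequences around the transcription start were at hand for 6 of the 10 genes (MUC1, MUC13, MUC16, AGR2, AGR3 and SPDEF), from 250 bases before to 50 after the start. AGR2 and SPDEF are shown because they fell most among these, and MUC1 and MUC16 because they hold the pattern for a G-quadruplex, a fold of guanine-rich DNA named in the title of the study. The pattern searched was 4 runs of at least 3 G with 1 to 7 bases between runs, on both strands. All windows are GRCh38.p14 on the minus strand, written 5′ to 3′, with matches in capitals. They span chr7:16804950-16805249 (AGR2), chr6:34556280-34556579 (SPDEF), chr1:155192866-155193165 (MUC1) and chr19:9065702-9066001 (MUC16).
AGR2: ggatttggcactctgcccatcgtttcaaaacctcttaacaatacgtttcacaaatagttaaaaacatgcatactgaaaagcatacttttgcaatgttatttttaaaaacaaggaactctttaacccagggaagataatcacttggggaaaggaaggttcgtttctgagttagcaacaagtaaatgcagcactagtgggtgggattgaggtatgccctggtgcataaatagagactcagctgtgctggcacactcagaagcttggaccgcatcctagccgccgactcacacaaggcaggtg
SPDEF: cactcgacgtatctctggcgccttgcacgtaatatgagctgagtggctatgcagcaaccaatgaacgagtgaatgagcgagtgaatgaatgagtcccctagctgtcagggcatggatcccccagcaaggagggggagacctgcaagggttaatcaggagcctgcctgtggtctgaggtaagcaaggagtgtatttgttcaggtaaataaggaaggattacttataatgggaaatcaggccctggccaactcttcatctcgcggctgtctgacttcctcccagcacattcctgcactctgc
MUC1: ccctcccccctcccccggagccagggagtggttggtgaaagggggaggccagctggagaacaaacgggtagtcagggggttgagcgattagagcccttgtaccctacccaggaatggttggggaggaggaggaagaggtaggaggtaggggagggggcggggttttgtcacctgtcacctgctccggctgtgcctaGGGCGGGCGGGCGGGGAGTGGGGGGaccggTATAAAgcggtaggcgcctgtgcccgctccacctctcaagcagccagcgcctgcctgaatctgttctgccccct
MUC16: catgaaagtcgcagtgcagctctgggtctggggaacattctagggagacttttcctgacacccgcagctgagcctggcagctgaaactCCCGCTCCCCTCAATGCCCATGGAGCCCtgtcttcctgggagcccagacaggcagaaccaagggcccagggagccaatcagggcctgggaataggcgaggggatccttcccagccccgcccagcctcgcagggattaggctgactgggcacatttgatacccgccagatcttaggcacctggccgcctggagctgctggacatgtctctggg

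In MUC1 the capitals mark the G-quadruplex pattern, which begins 54 bases before the start, and a TATAAA box. In MUC16 they mark the pattern read on the opposite strand. The pattern occurs in 24.1% of 27305 promoter windows of this length, and TATAAA in 12.0%. Other exact strings searched on both strands were TGTTTNC for forkhead factors (18.1% of windows), CCGGAT for ETS factors (7.06%) and the endoplasmic reticulum stress element ERSE (0.0806%). None of these 3 strings was found in the windows of AGR2, SPDEF, MUC1, MUC13 or MUC16, and the AGR3 window held TGTTTNC and TATAAA. Other forms of the forkhead and ETS motifs were not searched, so their absence is not shown. A match is a string of letters, not a bound site.

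In A549, none of the 9 tested genes was called in either direction, and each had overlapping WT and KO libraries. APEX1 itself was not called here (log2 fold change -1.51, edgeR adjusted p = 0.521), so the lack of a call does not show a lack of change. edgeR called 1 gene (0.00633%) of 15806 in this comparison, with 895 (5.66%) at an unadjusted p under 0.05, and DESeq2 called 126, none of them among the secretory genes. Of the 9, only TFF1 had an unadjusted edgeR p under 0.05. Groups that did not overlap were found for 10.6% of 17677 genes. What stood out was the distance between the KO libraries themselves.

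MUC5AC measured 396, 458 and 459 CPM in A549 WT 1, 2 and 3. The KO libraries held 179.6, 766 and 124 CPM in KO 65, 16 and 66, so KO 16 lay above every WT library and the other KO libraries lay below. The highest KO value was 6.20 times the lowest, against 1.16 times among WT, and the fitted log2 fold change was -0.25 (SE 0.66, edgeR adjusted p = 0.995). Only 2.79% of genes had a range among the A549 KO libraries, in log2(CPM + 0.5), as wide as that of MUC5AC. MUC5B measured 186, 114 and 118 CPM in WT and 116, 139 and 60.5 CPM in KO, with KO 66 again lowest. Its log2 fold change was -0.39 (SE 0.37, edgeR adjusted p = 0.995). MUC5AC exceeded MUC5B per kilobase in every A549 library, by 2.27 to 4.27 times in WT and by 1.66 to 5.88 times in KO.

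Of the membrane mucins of A549, MUC16 and MUC13 also differed widely among KO libraries, and MUC1 differed less. MUC16 measured 2.30, 2.11 and 1.70 CPM in WT and 0.999, 3.84 and 16.1 CPM in KO, so KO 65 was below WT and the other KO libraries above. Its KO values spanned 16.1 times, a range that 1.601% of genes matched or passed, and its log2 fold change was 1.80 (SE 0.89, edgeR adjusted p = 0.939), or 0.28 without KO 66 (edgeR adjusted p = 0.862). MUC13 measured 14.1, 31.1 and 32.5 CPM in WT and 36.9, 61.4 and 12.6 CPM in KO. It was highest in KO 16 and lowest in KO 66, with a log2 fold change of 0.56 (SE 0.58, edgeR adjusted p = 0.995). MUC1 measured 8.46, 4.99 and 6.88 CPM in WT and 6.17, 3.30 and 4.09 CPM in KO. These groups overlapped through KO 65, and the log2 fold change was -0.57 (SE 0.34, edgeR adjusted p = 0.995).

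AGR2 measured 223, 336 and 328 CPM in A549 WT and 216, 428 and 191 CPM in KO, and SPDEF measured 27.6, 43.1 and 42.3 CPM in WT and 25.9, 34.4 and 27.1 CPM in KO. SPDEF was the steadiest of the tested genes among KO libraries, with a highest value 1.33 times the lowest. The log2 fold change was -0.04 for AGR2 and -0.34 for SPDEF (edgeR adjusted p = 0.995 for each). The low genes had few reads: TFF1 had 6, 20 and 14 counts in WT and 85, 72 and 14 in KO, with a log2 fold change of 2.09 (SE 0.74, edgeR adjusted p = 0.805). AGR3 had 0, 15 and 14 counts in WT and 7, 36 and 22 in KO (log2 fold change 1.17, edgeR adjusted p = 0.995). TFF3 had at most 3 counts in any A549 library and was not tested.

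Set against the WT libraries of its own set, each KO library gave a different picture. On the scale of log2(CPM + 0.5), MUC5AC differed by -1.14 in KO 65 from WT 1, and by 0.74 in KO 16 and -1.89 in KO 66 from the mean of WT 2 and WT 3. In the same order, MUC16 differed by -0.90, 0.86 and 2.79, MUC13 by 1.36, 0.94 and -1.30, and MUC5B by -0.68, 0.26 and -0.93. Only MUC1 and SPDEF were below their WT in all 3 comparisons (-0.43, -0.75 and -0.47 for MUC1, and -0.09, -0.31 and -0.65 for SPDEF), and only AGR3 was above in all 3, at a few counts. These differences have no test, since each rests on a single KO library.

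**Figure D2:**
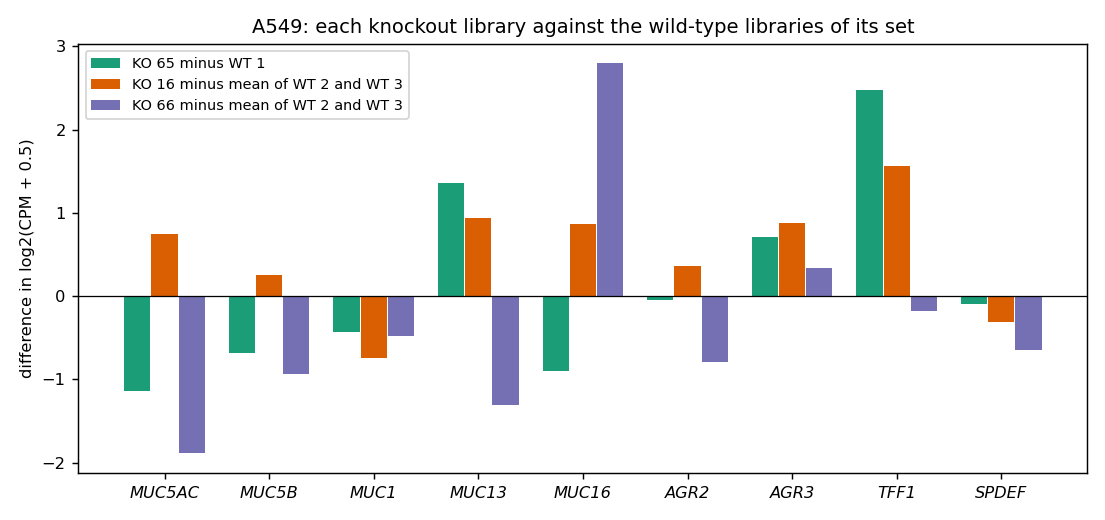
Difference in log2(CPM + 0.5) between each A549 KO library and the WT library or libraries of its own set, for the 9 genes tested in A549; each bar is 1 KO library. MUC5AC, MUC5B, MUC13, MUC16, AGR2 and TFF1 have bars on both sides of 0.

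Other secretory markers also differed between these A549 libraries, not all in the same order. The 16 airway goblet markers summed to 82.1 to 244 CPM in WT and to 313 to 1112 CPM in KO, with CLCA1 at 0 in all 6 libraries, and edgeR called 0 of the 7 tested, with 2 at an unadjusted p under 0.05 (DESeq2 called 2, CEACAM5 and BCAS1). CEACAM6, a surface adhesion protein (chosen after its values were seen), was the largest part of the sum in every A549 library. CEACAM6 had 31.8, 179.5 and 174 CPM in WT 1, 2 and 3 and 241, 876 and 217 CPM in KO 65, 16 and 66. It was thus highest in KO 16, as MUC5AC, MUC5B, MUC13, AGR2 and SPDEF were among the KO libraries. LCN2, a secreted siderophore-binding protein from the list of club and gland markers, was by contrast highest in KO 65 at 286 CPM and lowest in KO 16 at 36.8 CPM, and S100P was lowest in KO 16 at 4.58 CPM. KO 16 also had the largest share of ribosomal RNA counts, 14.2%. The part of any of these in the mucin values was not tested.

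The change in KO differed between the lines for 5 of the 9 genes tested in a single fit of all 10 libraries, against 6.95% of 17677 genes, and all 5 were higher, as 4.1% of genes were. The difference, A549 change minus H1944 change on the log2 scale, was 9.81 for AGR2 (SE 0.71, edgeR adjusted p = 0.000307), 6.41 for MUC5B (SE 0.56, edgeR adjusted p = 0.000479) and 5.05 for SPDEF (SE 0.41, edgeR adjusted p = 0.000398). The value for AGR2 rests on 3 and 1 counts in the H1944 KO libraries, and that of SPDEF on 4 and 6. These 3 were called in each of the 14 alternatives tried. MUC5AC differed by 3.89 (SE 0.98, edgeR adjusted p = 0.0477) and MUC1 by 2.16 (SE 0.42, edgeR adjusted p = 0.0168). MUC5AC lost its call without A549 WT 1 (edgeR adjusted p = 0.0717), WT 2 or WT 3 (0.106 each), without any H1944 library (0.133 to 0.211) and with no filter on low counts (0.0753). MUC1 lost its call without any of the 4 H1944 libraries (edgeR adjusted p = 0.0784 to 0.108). MUC16 at 4.40 (edgeR adjusted p = 0.0674), MUC13 at 1.43 (0.336), TFF1 at 4.92 (0.116) and AGR3 at 7.48 (0.129) were not called, and fitted values of AGR3 and TFF1 depend on the prior count. MUC16 gained a call in 4 of the 14 alternatives, with DESeq2 (adjusted p = 0.00125), without A549 KO 65 (edgeR adjusted p = 0.0105), without A549 KO 66 (0.0371) and with the A549 set as a term (0.0420). AGR3 gained a call in 3 (adjusted p = 0.0197 with DESeq2, and edgeR adjusted p = 0.0457 without A549 WT 1 and 0.0225 with the set as a term), and TFF1 in 1 (0.0268 without A549 KO 66).

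**Figure D3:**
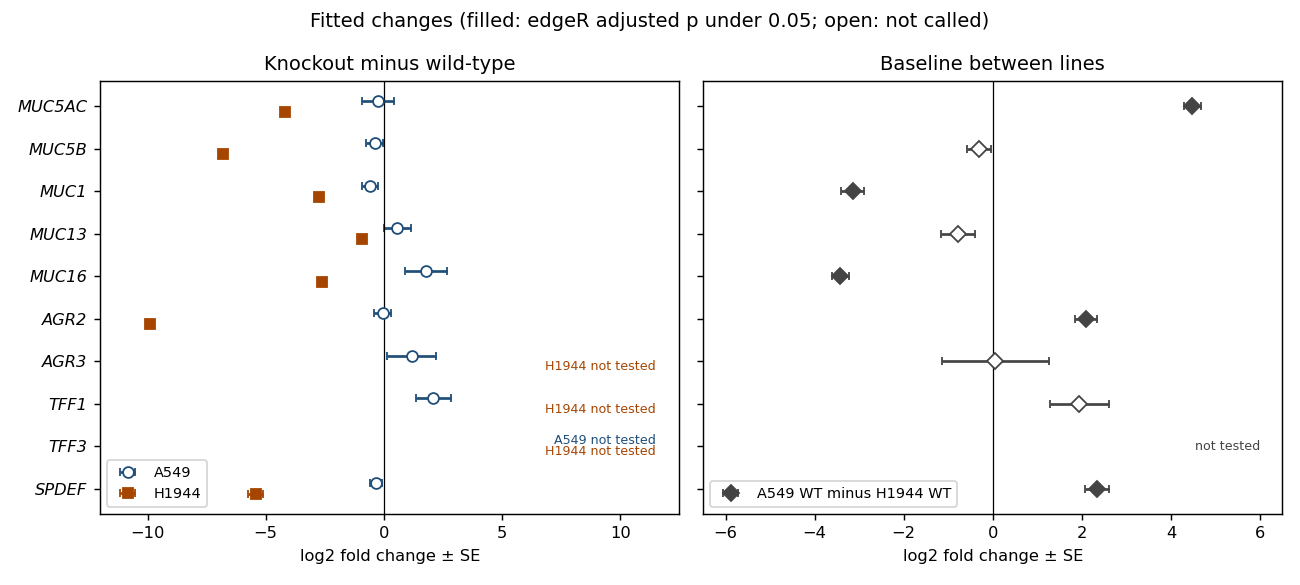
Left, fitted log2 fold change with its SE for KO against WT in A549 (circles) and H1944 (squares); right, for A549 WT against H1944 WT. Filled symbols are called (edgeR adjusted p under 0.05) and open symbols are not: all 7 tested genes are filled and below 0 in H1944, and all 9 are open in A549.

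Before any knockout, the lines differed in which mucins they expressed: A549 held more MUC5AC, AGR2 and SPDEF, and H1944 more MUC1 and MUC16. Of 9 tested genes, 3 were called higher and 2 lower in A549 WT, against 20% of 16857 genes called higher, 21.2% called lower and 41.2% called in either direction. Line, culture medium and deposited table cannot be told apart in this comparison. MUC5AC was 22.2-fold higher in A549 (log2 fold change 4.47, SE 0.19, edgeR adjusted p = 0.000519), SPDEF 5.06-fold higher (2.34, SE 0.27, edgeR adjusted p = 0.00359) and AGR2 4.25-fold higher (2.09, SE 0.24, edgeR adjusted p = 0.00368). MUC16 was 10.7-fold lower in A549 (log2 fold change -3.42, SE 0.20, edgeR adjusted p = 0.000862), while MUC1 was 8.88-fold lower (-3.15, SE 0.25, edgeR adjusted p = 0.00161). MUC5B, at 139 ± 40.4 CPM in A549 (SD, n = 3) and 173 ± 5.60 CPM in H1944 (SD, n = 2), overlapped between the lines and was not called (edgeR adjusted p = 0.375). MUC13 (log2 fold change -0.78, edgeR adjusted p = 0.157), TFF1 (1.94, 0.0706) and AGR3 (0.06, 0.973) were not called either.

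Single libraries mattered here. Without H1944 WT 2, AGR2 and SPDEF were not called (edgeR adjusted p = 0.0542 for each), and without H1944 WT 1, AGR2 was not (0.0574). Without A549 WT 1, the library from the other set, MUC5B (log2 fold change -0.57, edgeR adjusted p = 5.6e-12), MUC13 (-0.48, 1.2e-06) and TFF1 (2.28, 0.00143) were called. WT 1 held counts of RNA28SN4, as did the H1944 WT libraries (2935 and 4963), while A549 WT 2 and WT 3 held 0. Ribosomal RNA genes took 0.284% of counts in WT 1, and 6.45% and 6.46% in WT 2 and WT 3. In the fit without WT 1, set and line therefore cannot be told apart. Per kilobase, A549 WT was led by AGR2 at 104 ± 22.2 CPM (SD, n = 3), then MUC5AC at 25.1 ± 2.05 and SPDEF at 19.7 ± 4.54, then MUC5B at 7.49 ± 2.17 and MUC13 at 7.40 ± 2.92, which did not differ beyond their spread, and MUC1 at 1.44 ± 0.369. MUC16, at 0.0464 ± 0.00699, was the lowest of the 10 in A549 WT together with TFF3, at 0.0526 ± 0.0597. The gel-forming mucin that led by this measure was thus MUC5AC in A549 and MUC5B in H1944.

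The wider secretory program was followed through 16 gene lists, which held 207 genes in all. In A549, edgeR called 0 of 138 tested genes of the lists, with 23 at an unadjusted p under 0.05, and DESeq2 called 5 (ABCA3, BCAS1, CEACAM5, GALNT14 and GCNT3, named after their values were seen). In H1944 the median log2 fold change over all genes was -0.01, and the lists are read against that and against the 67.1% of all genes that were called. MUC3A, FUT3, GALNT14, FOXA2, HNF4A, CEACAM5 and PIGR had fewer than 10 counts in each KO library and passed the filter through WT, where they are high. The reverse held for genes such as TFF2, GALNT5 and COL3A1 (named after their values were seen). These had fewer than 10 counts in each WT library and passed through KO. The counts and medians of all such lists therefore describe the genes tested and not the whole lists.

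Regulators of goblet cell fate lay mostly lower in H1944 KO: 15 of 21 tested fell, 3 rose and the median log2 fold change was -0.72. EHF fell by 2.76 and ELF3 fell by 2.12 on the log2 scale, both epithelial factors of the same ETS family as SPDEF (edgeR adjusted p = 3.2e-21 and 3.6e-21). EHF went from 132 and 138 CPM to 20.4 and 19.5 CPM, and ELF3 from 210.5 and 211 CPM to 48.6 and 48.1 CPM. XBP1, a factor of the secretory stress response, fell by 0.72 and NOTCH3, a Notch receptor, fell by 0.83 (edgeR adjusted p = 1.3e-13 and 3.0e-12). HEY1, HES1 and KLF4, named after their values were seen, lay higher in KO. HEY1 went from 0.695 and 0.514 CPM in WT to 4.46 and 4.24 CPM in KO. HES1 went from 36.6 and 35.7 CPM to 50.3 and 50.1 CPM, and KLF4 from 39.5 and 39.3 CPM to 56.7 and 51.6 CPM. FOXA2, a forkhead factor known to restrain mucus production and named after its values were seen, had 15 and 37 counts in WT and 0 in both KO libraries, at least 11.6-fold lower against 3 counts per library. In A549 the same factor had 529 to 1073 counts in every library.

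Proteins that act directly on mucins did not share a direction. Among enzymes of mucin O-glycosylation, 10 of 23 tested fell and 8 rose, with a median log2 fold change of -0.07. Of the GALNT enzymes, which add the sugar that starts each chain, GALNT1 fell by 0.87, GALNT3 fell by 3.73 and GALNT4 fell by 1.08 on the log2 scale, and GALNT2 rose by 0.64 (edgeR adjusted p = 2.1e-11 at most). Of endoplasmic reticulum isomerases and folding proteins other than AGR2 and AGR3, 11 of 15 tested rose and 4 fell, with a median of 0.21. TXNDC5, PDIA4 and PDIA5 rose by 0.59, 0.37 and 0.84 and the chaperone CANX fell by 0.27 (edgeR adjusted p = 6.3e-08 at most). For granule release, 4 of 13 rose and 3 fell, with a median of -0.12: MARCKS, which links granules to the cytoskeleton, rose by 1.46 and RAB3D by 0.72, and the membrane fusion protein STX3 fell by 0.53 (edgeR adjusted p = 5.7e-07 at most).

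Surface transporters and secreted markers were followed next. In the ion and water transport list, 4 of 7 tested fell and 0 rose, with a median of -1.89: the sodium channel subunit SCNN1A fell by 1.89, the water channel AQP3 fell by 2.99, and of the anion transporters SLC4A4 fell by 4.01 and SLC26A9 fell by 2.93 (edgeR adjusted p = 1.6e-10 at most). Of 15 club and gland markers, 3 were tested, and all 3 fell. Their median was -5.53, or -4.10 with PIGR, which had 0 counts in KO and passed the filter only through WT, at its bound. LCN2, a secreted iron-carrier protein, fell by 5.53 (edgeR adjusted p = 2.3e-20), SLPI, a protease inhibitor, fell by 1.48 (edgeR adjusted p = 6.8e-17), and PIGR, the immunoglobulin transporter, was at least 17.2-fold lower.

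Of 9 tested airway goblet markers, 4 fell and 2 rose, with a median of -0.47. CEACAM6 fell by 6.12 on the log2 scale, from 135 CPM in both WT libraries to 2.32 and 1.58 CPM (edgeR adjusted p = 2.8e-23), CEACAM5 was at least 117-fold lower and TSPAN8 fell by 2.96 (edgeR adjusted p = 1.8e-13). S100P, a calcium-binding protein, went the other way, from 429.6 and 449.6 CPM to 823 and 819 CPM (log2 fold change 0.90, edgeR adjusted p = 3.4e-16). TFF2, the gastric trefoil peptide that lies between TFF3 and TFF1, also rose. It had 0 and 1 counts in WT and 14 in each KO library, so it passed the filter only through KO. The ratio was 20.9, with a 95% exact binomial interval of 3.46 to 857 (named after its values were seen).

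Of 16 other mucins, 3 were tested and 2 of these fell, with a median of -1.81: OVGP1, the oviduct glycoprotein, fell by 1.81 (edgeR adjusted p = 2.2e-07) and MUC3A, a membrane mucin, fell by 3.23 at 2 to 3 counts in KO, having passed the filter only through WT (edgeR adjusted p = 0.000184). In the list of the EGF receptor family and its ligands, which are known inducers of MUC5AC, 5 of 10 fell and 3 rose, with a median of -0.45. ERBB3 fell by 3.90 and EGF fell by 1.46, while HBEGF rose by 2.64 and EREG by 0.66 (edgeR adjusted p = 9.4e-10 at most). Of 4 mucin partners, MSLN, which binds MUC16, rose 3.99-fold (edgeR adjusted p = 6.6e-17), LGALS9 rose by 0.88 on the log2 scale (0.0222), LGALS3 fell by 0.26 (0.000119), and the median was 0.46.

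Markers of other cell types were followed as well. Of alveolar type 2 markers, 3 of 5 tested fell and 0 rose, with a median of -1.93. SFTPD, a surfactant protein, fell by 4.004 on the log2 scale, NAPSA fell by 3.40 and LPCAT1 fell by 1.93 (edgeR adjusted p = 0.000529 at most), and the list summed to 65.98 to 72.0 CPM in WT and 13.5 to 14.5 CPM in KO. Of intestinal and gastric markers, 3 of 5 fell and 0 rose, with a median of -0.89. CDH17, an intestinal cadherin, went from 587 and 585 CPM to 3.60 and 3.09 CPM (log2 fold change -7.45, edgeR adjusted p = 5.8e-28). Ciliated markers gave 1 higher and 2 lower of 6 (median 0.19), basal markers 1 higher and 2 lower of 5 (0.29), fibroblast markers 3 higher and 1 lower of 6 (0.43), and leukocyte markers 0 of 3 (-0.01, with 2 at an unadjusted p under 0.05 by edgeR and 0 called by DESeq2). The part of any of these lists in the fall of the mucins was not tested.

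**Figure D4:**
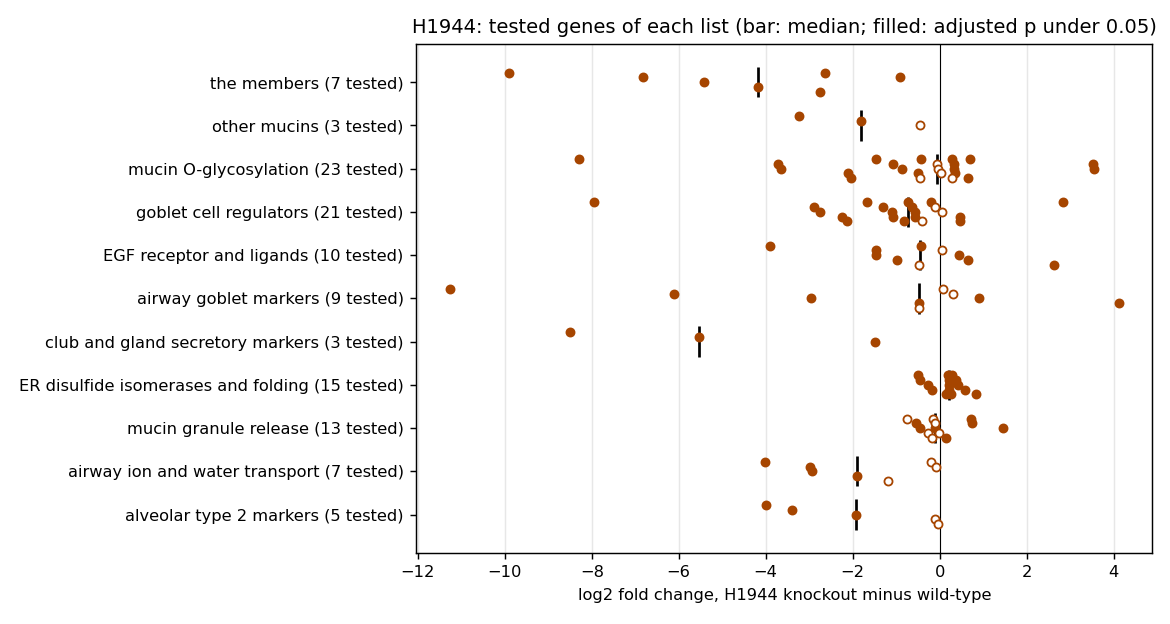
Fitted log2 fold change, H1944 KO minus WT, of each tested gene in the 10 secretory genes and in the gene lists tied to mucus, transport and alveolar cells; points are genes, filled where edgeR adjusted p is under 0.05, and bars are medians. Genes with 0 counts in a group are drawn at their fitted value, which depends on the prior count; the secretory genes have a median of -4.19, and the folding list lies near 0.

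Of 43 neighbours within 3 genes on either side of the 10, 26 were tested in H1944, 7 of them lower and 9 higher, with a median log2 fold change of 0.04. Over all genes, 33.9% were lower. Of the 26, 3 were lower by 4-fold or more (TSPAN13, PACSIN1 and MUC5B-AS1), against 4.99% of all genes. MUC5B-AS1 lies within MUC5B, so its fall is not separate from that of MUC5B. MUC5B-AS1 and PACSIN1 passed the filter only through WT. Among the 9 higher, RPS10 and RPS10-NUDT3 overlap each other. These counts are therefore not read as a result about the neighbours. TOLLIP, which lies 12.2 kb past MUC5B, had a log2 fold change of 0.06 (edgeR adjusted p = 0.367). TSPAN13, which lies 7.28 kb from AGR2, fell by 3.03 (edgeR adjusted p = 2.4e-19), and PACSIN1, 2.58 kb from SPDEF, fell by 2.55 at no more than 5 counts in KO (edgeR adjusted p = 0.00965). Next to MUC13, the integrin gene ITGB5 rose by 2.01 and HEG1 by 2.29 (edgeR adjusted p = 3.4e-20 and 2.0e-13).

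Likeness of profile was measured as the root mean square difference of log2(CPM + 0.5) over the 10 libraries, with each gene centred on its own mean, among 17677 genes. The gene most like AGR2 was MUC5AC (1.14), followed by SPDEF (1.34) and ANXA13 (1.41), against 3.47 for a flat profile. SPDEF was nearest to ANXA13 (0.363), DMTN (0.374) and PXMP4 (0.391). MUC5AC was nearest to MMP7 (0.983), TM4SF18 (1.03) and GALNT14 (1.06). MUC5B was nearest to FGL1 (0.591), CPLX2 (0.677) and SLC22A3 (0.719). The membrane mucins had other company: MUC1 was nearest to KNG1 (0.284), WASF3 (0.302) and DTNA (0.312), and MUC13 to COBL (0.325), AP1S3 (0.390) and CLTRN (0.409). MUC16 was nearest to DOCK8-AS1 (0.630) and to C11orf52 and HSPB2-C11orf52 (0.632), which share their reads and have equal values. The 10 libraries share line and genotype, so these are descriptions of 4 groups more than of 10 independent points. Differences below the 0.5 added to each CPM are also compressed on this scale. KNG1, DTNA and C11orf52 lay at 0.189, 0.109 and 0.0630 CPM in A549 WT, and ANXA13 at 0.0173 CPM in H1944 KO. AGR2 and SPDEF themselves lay at 0.0683 and 0.168 CPM in H1944 KO. MMP7, GALNT14 and PXMP4 lay at 0.0666, 0.100 and 0.0510 CPM there. The likeness of all these genes, with that of AGR2 to MUC5AC and SPDEF, rests in part on that added value.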

How the data were processed

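The deposited tables hold raw counts per gene symbol for poly(A) RNA, 1 table per line, with no normalization by the authors. The submitters' processing notes name Trim Galore 0.5.0, HISAT2 2.1.0, featureCounts 1.6.4, DESeq2 and hg38. Annotation, strand and how multi-mapping reads were counted are not given in the sources used here, which leaves overlapping genes and the repeat-rich mucins uncertain. The A549 columns 65, 16 and 66 were taken as KO because no other labelled group remained for them, and which replicate each is remains unknown. Unused per-sample columns numbered 0. Totals were 18314224 to 30219850 counts, and a count of 0 was read as up to 3.

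Genes were filtered with filterByExpr (minimum count 10), scaled by TMM and tested by quasi-likelihood (robust) in edgeR 4.0.16 (limma 3.58.1, R 4.3.3), with Benjamini-Hochberg adjustment over all genes tested. A549 and H1944 were fitted separately, the baseline on WT libraries, and the difference between lines in 1 fit of 10 libraries. The fits were tested on simulated data. Alternatives were RLE size factors, no filter, DESeq2 1.42.0, a replicate block, all 10 libraries in 1 fit, the A549 set as a term and each library left out; a fit of the larger A549 set alone was added after seeing the data. Each SE was derived from the fold change and its F statistic and is approximate. Whether libraries of a group are separate cultures is not stated, so p-values speak to variation among these libraries alone, which could be technical. Libraries of a group differed by a chi-square per gene of 2.95 in H1944 KO, 3.37 in H1944 WT and 1.90 between A549 WT 2 and WT 3. The other A549 pairs differed by 135 to 273. The small H1944 p-values rest on these close pairs. No libraries were merged.

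Lengths are GENCODE v29 exon unions, which may differ from the authors' models. Coordinates and promoters are RefSeq GRCh38.p14. The 10 genes and the 16 lists were chosen with earlier results of these data known. Named genes are the 10 members, APEX1, up to 4 genes of each list with the smallest adjusted p, the 3 genes most like each member and the nearest 3 genes on each side. Others are said to be named after their values were seen. 1 gene that this rule names is not reported here.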

Additional observations from a re-analysis of the deposited data

Results flagged for a closer look

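The KO effect differed between the lines for 5 of the 9 genes tested, by a test of the difference itself (edgeR, 1 fit of 10 libraries), against 6.95% of all genes. A549 change minus H1944 change on the log2 scale was 2.16 for MUC1, 3.89 for MUC5AC, 6.41 for MUC5B, 9.81 for AGR2 and 5.05 for SPDEF. In all 5 the H1944 KO libraries lay below their WT libraries, and the A549 libraries overlapped. MUC5AC lost its call in 8 of 14 alternatives and MUC1 in 4, and the other 3 lost none. The cause was not tested, and line, medium and deposited table cannot be told apart.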

How the results depend on the processing

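Of 385 combinations of a single gene and an alternative, over 34 gene results, 345 kept the direction and the side of the threshold, 17 lost the call, 12 gained it and 11 changed sign. The H1944 calls of MUC5AC, MUC5B, MUC1, AGR2 and SPDEF held in every alternative tried. With all 10 libraries in 1 fit, H1944 calls over all genes fell from 11164 to 2522. A549 calls over all genes went from 1 to 2 with no filter or with the set as a term, 126 with DESeq2, 16 in the fit of all libraries, and 0 in the larger set alone or without any replicate. For the difference between lines, calls over all genes went from 1228 to 2235 with DESeq2, 2759 with the set as a term and 397 to 2892 with a replicate left out, which also gave 3 to 7 secretory genes. In the baseline, leaving out a replicate gave 1527 to 13851 genes in place of 6943, with 1 to 4 secretory genes higher and 2 to 4 lower in A549. Signs changed among uncalled values when a replicate was left out: in A549, AGR2 ranged from -0.53 to 0.15, MUC5AC from -1.53 to 0.14 and MUC13 from -0.056 to 0.95, and baseline AGR3 from -0.54 to 1.03. A lone library left in a group was assumed to vary like the others. The cause was not tested.

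A replicate block changed no H1944 member call: 7 secretory genes stayed lower and 11228 genes were called. In the baseline it gave 5502 genes, called MUC13 (-1.08, edgeR adjusted p = 0.0227) and turned AGR3 to -0.77. Deviations of same-numbered libraries correlated at 0.02 in H1944 and -0.02 between the WT groups, so no shared deviation by number was seen. With so few libraries this does not show whether same-numbered libraries were handled together. For A549 KO against WT, no paired analysis was possible because the KO columns carry no replicate number. At these depths AGR3, TFF1 and TFF3 were limited by counting error.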
